A study of Mus musculus with 11 samples.

Results

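The cytosolic ribosomal protein genes were examined in mouse liver across 3 groups of mice. They were taken as all probe sets whose gene symbol in the platform annotation began with Rpl or Rps and a digit, or was Rpsa, Rplp0, Rplp1 or Rplp2, without the Rps6k kinases and without pseudogene symbols. This gave 100 of the 22690 probe sets on the array, which stood for 48 of the 12393 genes that could be named. Of these genes 22 belong to the large subunit, 20 to the small subunit, and 6 are paralogues (Rpl3l, Rpl7l1, Rpl22l1, Rpl39l, Rps4l and Rps27l). A further 102 probe sets carried several symbols, 1 of them a ribosomal protein gene, and these were kept apart because no single gene could be named from them. For 30 ribosomal protein genes, among them the stalk gene Rplp1 and Rpl5, this was the only kind of probe set.

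The study hybridised liver RNA of 11 male mice of mixed background, 1 array per mouse, and asked how liver expression responds to the diet and to muscle growth caused by Akt1. Group CN (n = 3) held wild-type animals kept on the normal diet. Group CH (n = 4) held wild-type animals given the high-fat diet. Group DH (n = 4) held Akt1 double transgenic animals given the high-fat diet, and the labels mark muscle hypertrophy in this group alone. Every mouse, the CN controls included, had received doxycycline for 3 weeks, so this exposure was common to all groups. The labels used here do not give the promoter that drives the transgene, the number of founder lines or the ages, and no transgenic group on the normal diet was analysed here. Diet was therefore compared in wild-type mice (CH minus CN) and genotype under the high-fat diet (DH minus CH). The p-values measure the spread between these mice only.

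Each eukaryotic ribosome is built from a small subunit, which reads the messenger RNA, and a large subunit, which joins the amino acids, with nearly every protein present in a single copy per ribosome. The messenger RNAs of these proteins begin with a run of pyrimidines, the terminal oligopyrimidine or TOP motif, through which mTORC1 controls their translation, and Akt lies upstream of mTORC1. The liver makes most plasma proteins and carries many ribosomes, and its ribosome content is known to follow nutrition.

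The deposited values were MAS5 signals on a linear scale, and differences are given on the log2 scale. All 11 hepatocyte markers with a probe set passed the limit on dim signals, a mean signal of about 53, and their summed signal was 184287 to 215518 in CN, 213057 to 229256 in CH and 216974 to 297016 in DH. None of 10 skeletal muscle markers passed it (Ckm and Acta1 among those below). Of 14 Kupffer cell and macrophage markers tested, 14 lay above 0 for CH minus CN and 12 for DH minus CH, with summed signals of 4259 to 7497 in CN, 5598 to 14221 in CH and 7183 to 18958 in DH, and only Marco of the list was dim. Both Folr2 (log2 difference 1.53 ± 0.34, SE, limma adjusted p = 0.0447) and Cd5l (2.02 ± 0.46, limma adjusted p = 0.0456) passed the test for DH minus CN. DH arrays 3 and 4 differed in shape from the rest, with top signals of 42426 and 43273 against 27780 to 35450 on the other arrays. DH array 3 also had the lowest mean poly-A spike signal, 113 over 27 control probe sets against 277 to 468 on the others, and the highest Gapdh 3′ to 5′ ratio, 0.823 against 0.669 to 0.768. The neutrophil gene Prtn3 was the other marker to pass, at 4.89 ± 0.75 for DH minus CH (SE, limma adjusted p = 0.0317). It was 1 of only 2 neutrophil markers tested, since 7 of the 9 with a probe set were dim (S100a8, S100a9 and Mpo among them). The part of these values in the results was not tested. In RNA from whole tissue, fewer cells of a type and less RNA per cell cannot be told apart.

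Of the 100 probe sets, 82 passed the limit on dim signals, and with the brightest probe set standing for each gene 45 of the 48 genes were measured, 21 of the large subunit, 20 of the small subunit and 4 paralogues. Rpl12, Rpl39l and Rpl3l were not above the limit. Rpl39l is known from testis and Rpl3l from striated muscle. Mean signals were above 4000 for 34 of the 45 genes and below 1000 for 8 (Rpl7l1, Rpl14, Rpl27a, Rpl39, Rps4l, Rps6, Rps25 and Rps27). The spread between mice of a group was small for these genes, with a median within-group SD of 0.129 log2 units against 0.245 over the 7924 genes tested. In the brightest 10% of genes the corresponding values were 0.117 for the ribosomal proteins and 0.163 for all genes.

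As a group, the ribosomal protein genes had their lowest values in wild-type livers on the high-fat diet, by a small margin. The CH mean was the lowest of the 3 group means for 36 of the 45 genes (80.0%), while CH was lowest for 26.5% of all genes tested. The median difference was -0.096 for CH minus CN, a fold of 0.936, and 0.142 for DH minus CH, a fold of 1.10. After quantile normalization it was -0.119 and 0.087, the latter smaller by more than 1.5 times. No single ribosomal protein gene passed the limma test at an adjusted p of 0.05 in either comparison. Each comparison uses the same 4 CH arrays, so opposite signs in the 2 comparisons are not independent of each other.

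The array medians show which mice carried this difference. Measured on each array as the median over the 45 genes of log2 signal minus the gene's CN mean, the CN values were -0.006, -0.061 and 0.085. In CH they were -0.113, 0.022, -0.168 and -0.207, and in DH -0.031, -0.057, 0.089 and 0.110. CH array 2 lay among the CN and DH arrays, and the other 3 CH arrays lay below every array of both other groups. The group means were 0.006 ± 0.074 (SD, n = 3) in CN, -0.116 ± 0.100 (SD, n = 4) in CH and 0.028 ± 0.084 (SD, n = 4) in DH. The same median over all genes tested stayed between -0.013 and 0.037 on every array. On CN array 2, 40 of the 45 genes lay below their CN mean, and on CN array 3, 38 lay above it. Single arrays of 1 group thus gave lopsided counts too, and the genes are not separate readings. In DH the higher medians were those of arrays 3 and 4, the 2 arrays with the brightest top signals. Without CH array 2 the median difference was -0.156 for CH minus CN, over 1.5 times the value with it, and 0.189 for DH minus CH. Without DH arrays 3 and 4 it was 0.085 for DH minus CH, smaller than with them by more than 1.5 times.

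Liver endothelial cell markers had medians of the same signs. Their median was -0.18 for CH minus CN, with 11 of 12 below 0, and 0.15 for DH minus CH, with 9 of 12 above 0, and none of the 12 was dim. Their summed signal was 4947 to 6206 in CN, 4342 to 5319 in CH and 5169 to 6529 in DH, and its part in the ribosomal protein values was not tested. Stellate cell markers had medians of the opposite signs, 0.32 and -0.17 over 9 genes. Hepatocyte markers were at 0.083 and 0.187 over 11 genes, and Kupffer cell and macrophage markers at 0.587 and 0.547 over 14. Erythroid markers, at -0.427 and 0.018 over 4 genes, also had the signs of the ribosomal proteins. After quantile normalization the DH minus CH median was 0.005 for hepatocyte and -0.127 for erythroid markers.

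**Figure D1:**
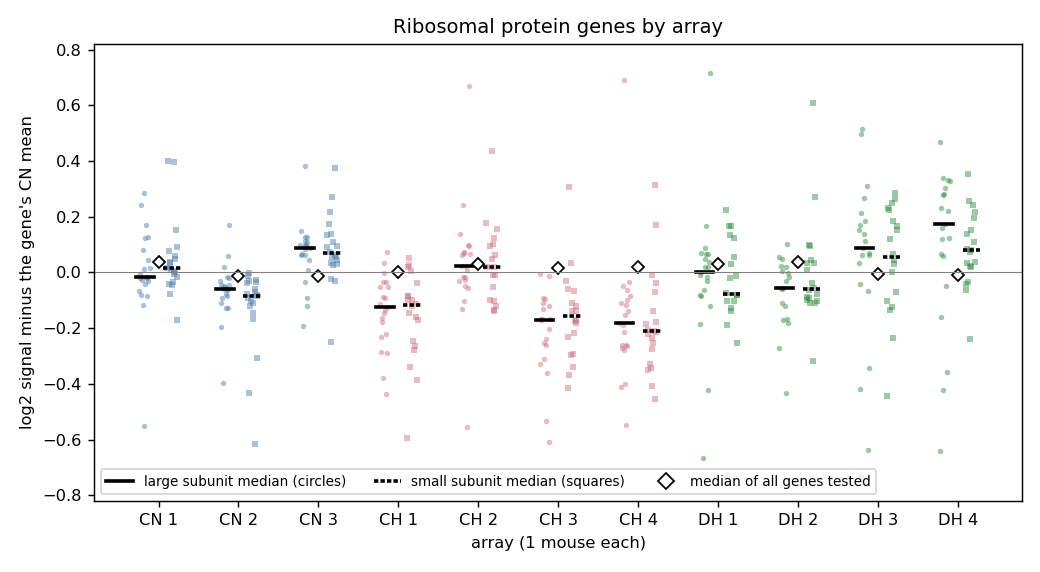
Log2 signal minus the gene's CN mean (vertical axis) for large subunit genes (circles) and small subunit genes (squares) on each of the 11 arrays (horizontal axis), with their medians as solid and dashed bars and the median of all genes tested as an open diamond; 11 of 451 points lie outside the axis limits of 0.8. CH arrays 1, 3 and 4 have the lowest medians, CH array 2 lies near 0, and DH arrays 3 and 4 lie above DH arrays 1 and 2.

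The large and small subunit genes had medians of the same sign in both comparisons. For CH minus CN the median was -0.093 over 21 large subunit genes, 19 of them below 0, and -0.111 over 20 small subunit genes, 18 of them below 0. For DH minus CH it was 0.172 over the large subunit genes, 18 of 21 above 0, and 0.138 over the small subunit genes, 18 of 20 above 0. The large subunit median minus the small subunit median on each array was -0.032, 0.023 and 0.019 in CN, -0.009, 0.002, -0.016 and 0.029 in CH, and 0.079, 0.002, 0.035 and 0.092 in DH. The CN and CH values lay on both sides of 0 and overlapped, and 3 of the 4 DH arrays lay above every CN and CH array. The mean of this subunit difference was 0.003 ± 0.031 (SD, n = 3) in CN, 0.002 ± 0.020 (SD, n = 4) in CH and 0.052 ± 0.041 (SD, n = 4) in DH. It was not tested because the genes were a chosen set. The difference between the subunit medians for DH minus CH was 0.034, and it was -0.002 with all probe sets in place of the brightest. The 4 paralogues did not share a direction, with medians of -0.041 for CH minus CN and -0.008 for DH minus CH.

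The start sites of some of the genes that stood out are shown because the TOP motif is the feature through which these messages are known to be controlled. Promoter sequences from RefSeq (GRCm38.p6) were found for 42 of the 48 genes, with 50 annotated starts. Each window below is 30 bases in the direction of transcription, 15 on each side of an annotated start, and capitals mark the longest run of C and T where it had at least 7 bases. The marked run can lie anywhere in the window, so it need not be a TOP motif, which begins the messenger RNA. In Rpl4 it lies wholly before the annotated start. Rpl27a and Rps24 had the smallest p-values for CH minus CN, and Rpl13a, Rps9 and Rpl35 were among the highest for DH minus CH. Rpl4 and Rpl7a were among the highest for DH minus CN. Rpl6 had the smallest p for DH minus CH, and Rpsa was among the lower genes of smallest p for CH minus CN. The windows of Rpl6 and Rpsa hold no such run. Rps19, also among those lower genes, is not shown. Its 3 annotated starts had longest runs of 4, 4 and 7 bases.
Rpl27a (chr7:109519180-109519209, plus strand): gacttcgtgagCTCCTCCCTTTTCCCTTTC
Rps24 (chr14:24490663-24490692, plus strand): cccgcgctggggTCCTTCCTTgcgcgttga
Rpl13a (chr7:45128731-45128760, minus strand): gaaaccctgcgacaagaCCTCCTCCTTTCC
Rps9 (chr7:3704026-3704055, plus strand): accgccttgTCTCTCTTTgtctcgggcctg
Rpl35 (chr2:39005117-39005146, minus strand): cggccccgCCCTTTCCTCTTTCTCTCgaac
Rpl4 (chr9:64173372-64173401, plus strand): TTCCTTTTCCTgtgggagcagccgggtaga
Rpl7a (chr2:26910792-26910821, plus strand): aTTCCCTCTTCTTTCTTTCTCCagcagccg
Rpl6 (chr5:121204486-121204515, plus strand): tggtcacctcccgtcattgcttatagaccg
Rpsa (chr9:120127751-120127780, plus strand): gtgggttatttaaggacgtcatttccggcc

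A run of at least 7 pyrimidines was present somewhere in the window for 24 of the 50 starts (48.0%), against 18.6% of the 32851 starts in the table. The longest run in the windows shown was 21 bases, in Rpl7a. Rps24 has another annotated start (chr14:24490738-24490767), not shown, whose longest run was 4 bases. Within 250 bases before to 50 after the start, on either strand, the letters CCGGAAG (the core bound by ETS factors) were found at 21 of 50 starts (42.0%) against 8.86% of all starts, GCCATNTT (the YY1 core) at 16.0% against 6.05%, and CACGTG (the E-box bound by MYC) at 10.0% against 7.15%. A match describes letters in the window and is not a bound site. The medians of the measured genes lay close together with and without these features. The 22 genes with a pyrimidine run had a median of -0.087 for CH minus CN and 0.158 for DH minus CH, and the 17 without had -0.114 and 0.144. With the ETS core the medians were -0.119 and 0.143 over 20 genes, and without it -0.090 and 0.154 over 19 genes.

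In the comparison of diets, 39 of the 45 genes lay below 0 for CH minus CN (86.7%), against 48.9% of all genes tested. Since these genes shifted together on single arrays (40 of 45 below the CN mean on CN array 2), this count is not 45 separate readings. No gene on the whole array passed (0 of 7924, 0%), and the smallest limma adjusted p among the ribosomal proteins was 0.385. At an unadjusted limma p under 0.05 there were 4 ribosomal protein genes (8.89%), all lower in CH, against 7.02% of all genes. Among genes of like brightness, with the dimmest 90% left out, there were 3 of 36 (8.33%), against 10.3% of all 1412 genes. After quantile normalization there were 10 of 45 (22.2%), against 6.88% of all genes, and with every probe set tested by itself 17 of 82 (20.7%), against 6.94% of all probe sets, again all lower in CH. The CH signals lay wholly below the CN signals for 4 genes (Rpl27a, Rpl8, Rps19 and Rps24), or 8.89%, against 3.33% of all genes, and wholly above them for none, against 4.58%. The median standard error was 0.109.

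Rpl27a, a large subunit protein, had the lowest adjusted p. Its only measured probe set read low for this class, at a mean signal of 309, and its other set was dim. The signals of the measured set were 355, 370 and 402 in CN, 289, 256, 292 and 257 in CH, and 280, 311, 296 and 293 in DH. Both high-fat groups lay below every CN array and overlapped each other. The log2 difference was -0.46 ± 0.11 (SE, limma adjusted p = 0.385), a fold of 0.727, and it was 0.11 ± 0.11 for DH minus CH.

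Rps24 and Rps19 are small subunit proteins whose human genes are mutated in Diamond-Blackfan anaemia. For Rps24 the signals were 8873, 8127 and 9372 in CN, 6722, 8063, 6794 and 6404 in CH, and 7974, 8127, 8773 and 9272 in DH. Every CH array lay below every CN array, CH array 2 by the least, and CH array 2 lay inside the DH range. The difference was -0.33 ± 0.10 (SE, limma adjusted p = 0.606), a fold of 0.794. Rps19 had signals of 4666, 4686 and 4993 in CN, 3776, 4353, 3887 and 3753 in CH, and 4190, 3831, 4553 and 4896 in DH. The CH arrays were again all below CN, while the DH arrays reached from the CH range into the CN range. Its difference was -0.28 ± 0.10 (SE, limma adjusted p = 0.666).

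Rpl8, which lies near the peptidyl transferase centre of the large subunit, had signals of 7444, 7648 and 8612 in CN, 6457, 7349, 6675 and 7433 in CH, and 7437, 7250, 7537 and 7618 in DH. CH and CN did not overlap, although the highest CH array lay just under the lowest CN array. The difference was -0.18 ± 0.09 (SE, limma adjusted p = 0.735). Rpsa, a small subunit protein also known as the laminin receptor, had signals of 6598, 5452 and 5809 in CN, 4937, 6017, 4454 and 4724 in CH, and 6164, 5525, 5408 and 6030 in DH. CH array 2 lay inside the CN range and the other 3 CH arrays below it, with a difference of -0.25 ± 0.12 (SE, limma adjusted p = 0.711).

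The 6 genes above 0 for CH minus CN were Rps25, Rps4l, Rpl4, Rpl14, Rps27 and the p53-responsive paralogue Rps27l. Of these Rps25, Rps4l, Rpl14 and Rps27 had larger standard errors, 0.333, 0.888, 0.287 and 0.422. Rps4l, a paralogue of Rps4x, ranged from 19.9 to 255 within CH alone. Rps25, a protein needed for initiation at some internal entry sites, was 0.52 ± 0.33 higher in CH with overlapping arrays, 53.7 to 83.9 in CN and 60.2 to 126 in CH. Rpl4 and Rps27l differed by 0.033 ± 0.112 and 0.002 ± 0.089.

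**Figure D2:**
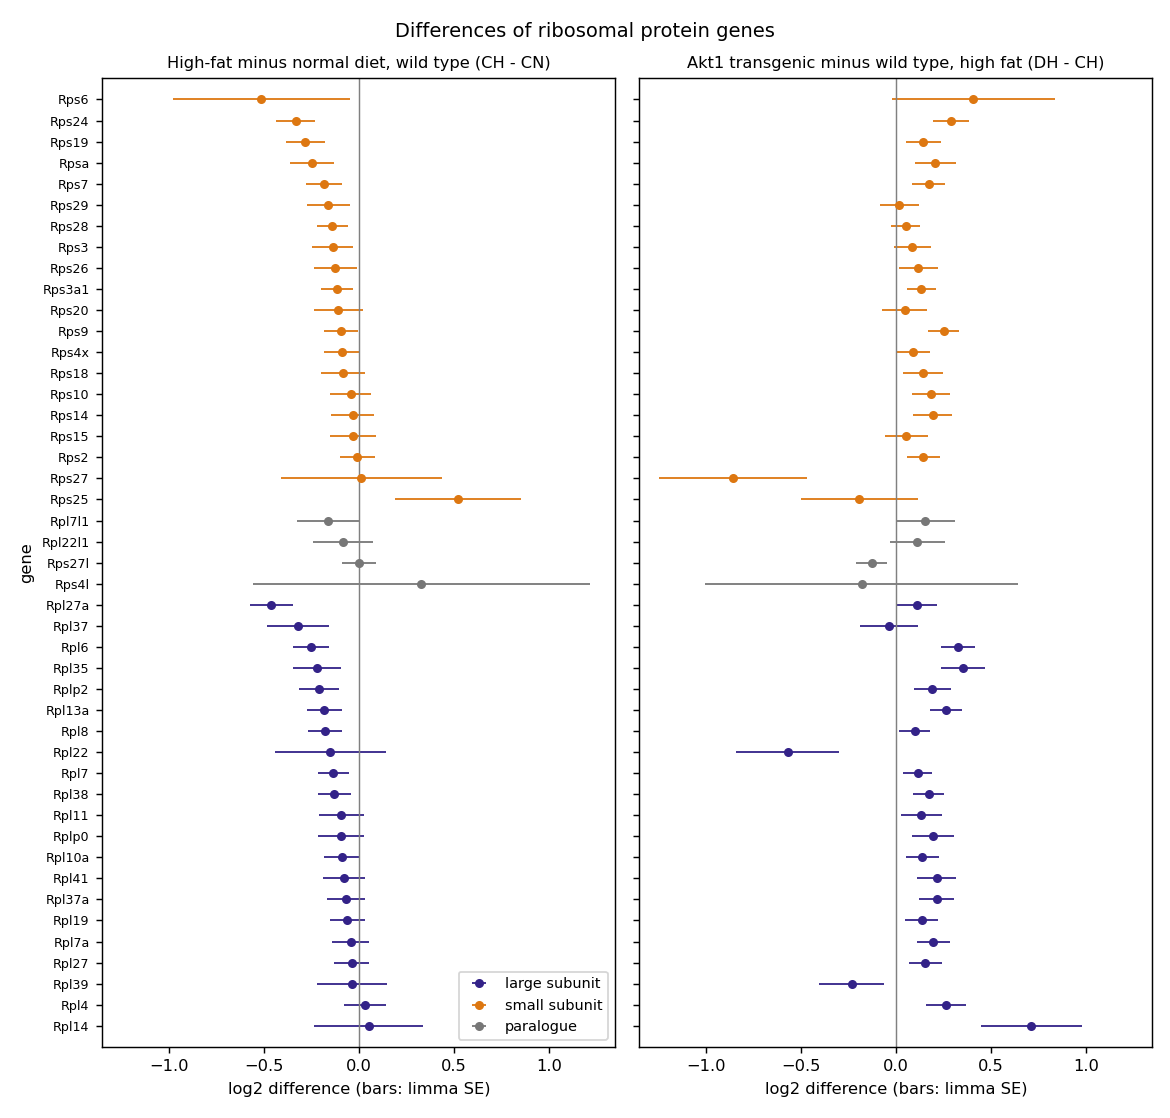
Log2 difference (horizontal axis) of each of the 45 measured genes (vertical axis, ordered within class by CH minus CN) for diet on the left and genotype under the high-fat diet on the right; bars are limma standard errors and colours give large subunit, small subunit and paralogue. Most points lie to the left of 0 on the left (39 of 45) and to the right of 0 on the right (38 of 45), and the longest bars belong to Rps4l, Rps6 and Rps27.

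In the comparison of genotypes under the high-fat diet, 38 of the 45 genes lay above 0 for DH minus CH (84.4%), against 50.2% of all genes tested. Here too the genes are not separate readings. No ribosomal protein gene was among the 29 genes that passed the test (0.366% of those tested), and the smallest adjusted p was 0.131. At an unadjusted limma p under 0.05 there were 10 (22.2%), 9 higher and 1 lower in DH, against 13.7% of all genes. After quantile normalization there were 8 of 45 (17.8%), against 14% of all genes, and with every probe set tested by itself 28 of 82 (34.1%), against 13.6%. The DH signals lay wholly above CH for 3 genes (Rpl6, Rpl7a and Rpl13a), or 6.67%, against 4.32% of all genes, and wholly below for 1 (Rps27l), or 2.22%, against 4.09%. With the dimmest 90% left out these shares were 8.33% against 6.37% wholly above, and 2.78% against 7.86% wholly below. The number of genes called on the whole array moved from 0 to 64 as single arrays were left out, and no ribosomal protein gene was called in any of those fits.

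Rpl6, a large subunit protein, had the smallest p. It had signals of 8092, 7597 and 8362 in CN, 6570, 7707, 6722 and 6027 in CH, and 8376, 8035, 8375 and 9034 in DH. Every DH array lay above every CH array, and CH array 2 was the highest of its group and inside the CN range. The difference was 0.33 ± 0.09 (SE, limma adjusted p = 0.131), a fold of 1.25, after -0.25 ± 0.10 for CH minus CN.

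Rpl13a, a large subunit protein that also takes part in silencing of inflammatory messages, had signals of 11825, 10494 and 12191 in CN, 10240, 11223, 9587 and 9554 in CH, and 11634, 11651, 12635 and 12805 in DH. All DH arrays were above all CH arrays, and the CN arrays spanned both. The difference was 0.26 ± 0.09 (SE, limma adjusted p = 0.209). Rpl7a, another large subunit protein, had signals of 12280, 11405 and 13791 in CN, 12732, 12662, 11688 and 11315 in CH, and 12869, 13366, 14000 and 15346 in DH. DH array 1 was only slightly above the highest CH array, and DH array 4 was the highest of all. The difference was 0.20 ± 0.09 (SE, limma adjusted p = 0.355).

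Rpl35, at the exit of the peptide tunnel, had signals of 6236, 6109 and 6791 in CN, 5463, 6695, 5075 and 4832 in CH, and 6301, 6359, 7664 and 7733 in DH. CH array 2 lay above DH arrays 1 and 2, and the other CH arrays lay below all DH and CN arrays. The difference was 0.35 ± 0.12 (SE, limma adjusted p = 0.213). Rps9, a small subunit protein that binds ribosomal RNA early in assembly, had signals of 6803, 6934 and 7270 in CN, 6604, 7244, 6354 and 6055 in CH, and 7859, 7174, 8185 and 8021 in DH. Only CH array 2 and DH array 2 crossed, and the difference was 0.25 ± 0.08 (SE, limma adjusted p = 0.210). For Rps24 the same comparison gave 0.29 ± 0.09 (SE, limma adjusted p = 0.210).

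Rpl14 had a larger difference, at a probe set with low signals of 71.0, 60.9 and 57.9 in CN, 59.2, 69.4, 43.5 and 102 in CH, and 104, 120, 90 and 118 in DH. CH array 4 reached into the DH range, and the other CH arrays lay in or below the CN range. The difference was 0.71 ± 0.26 (SE, limma adjusted p = 0.260).

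**Figure D3:**
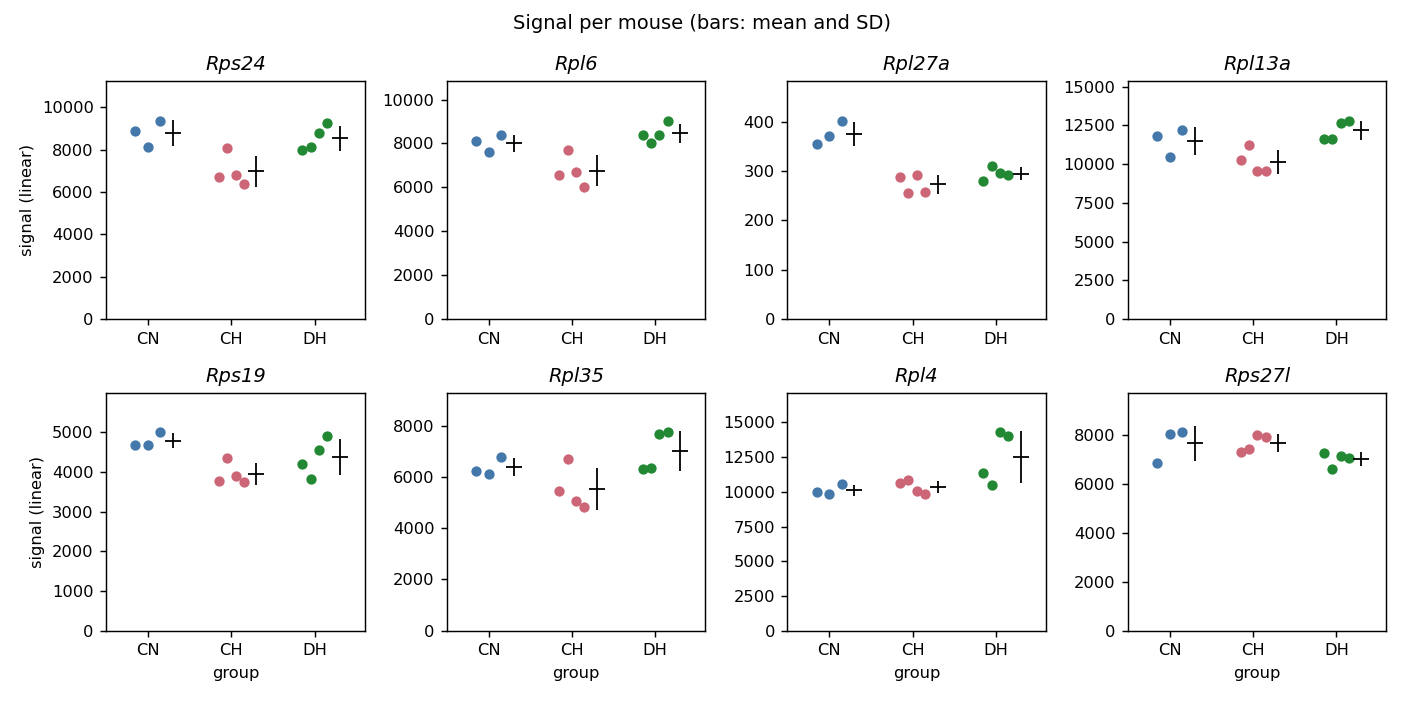
Signal on a linear scale (vertical axis) for each mouse in groups CN, CH and DH (horizontal axis) for 8 genes, with the group mean and SD beside the points. In Rps24, Rpl6, Rpl35 and Rpl13a CH array 2 is the highest CH point, in Rpl27a both high-fat groups lie below CN, and in Rpl4 DH arrays 3 and 4 lie apart at 14278 and 13981.

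The other 7 of the 45 genes lay below 0 for DH minus CH. Rps27l had signals of 6836, 8048 and 8103 in CN, 7295, 7404, 8015 and 7916 in CH, and 7259, 6593, 7136 and 7051 in DH. All DH arrays lay below all CH arrays, DH array 1 by a narrow margin, and CN array 1 lay inside the DH range. The difference was -0.13 ± 0.08 (SE, limma adjusted p = 0.524). Rpl22, a large subunit protein not needed for bulk translation, had signals of 2038, 3357 and 3885 in CN, 2638, 4748, 1675 and 2492 in CH, and 1881, 1664, 1799 and 1916 in DH. The DH values were tightly grouped below every CN array, while CH ran from inside the DH range to above all CN arrays. The difference was -0.57 ± 0.27 for DH minus CH (SE, limma adjusted p = 0.380), or -0.296 without CH array 2, and -0.72 ± 0.29 for DH minus CN (SE, limma adjusted p = 0.222). A second Rpl22 probe set gave -0.048 and 0.11 for the same comparisons.

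Rps27, a small zinc-finger protein of the small subunit, had signals of 385, 190 and 339 in CN, 241, 394, 361 and 220 in CH, and 176, 94.4, 113 and 372 in DH. DH array 4 lay high in the CH range and the other 3 DH arrays below all CH and CN arrays. The difference was -0.86 ± 0.39 (SE, limma adjusted p = 0.363). For Rpl39, which lines the peptide tunnel, and Rpl37 the differences were -0.23 ± 0.17 and -0.035 ± 0.152, and for Rps25 -0.19 ± 0.31, with overlapping arrays in each case.

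Among the other proteins with a special role none passed the test. Rps6, the S6 kinase substrate of the small subunit, had signals of 416, 296 and 519 in CN, 264, 151, 341 and 450 in CH, and 144, 609, 454 and 477 in DH. The CH arrays spread from inside to below the CN range and the DH arrays beyond both of its ends, and the standard errors were 0.465 for CH minus CN (-0.51) and 0.430 for DH minus CH (0.41). Rpl11, which binds MDM2 when ribosome assembly fails, differed by -0.093 ± 0.118 and 0.13 ± 0.11. The stalk protein Rplp0, onto which elongation factors are recruited, had signals of 10665, 8813 and 10912 in CN, 9854, 10771, 8978 and 8411 in CH, and 10572, 9967, 10312 and 12685 in DH. The groups overlapped, with differences of -0.092 ± 0.121 and 0.20 ± 0.11. Its partner Rplp2 differed by -0.21 ± 0.11 and 0.19 ± 0.10 (limma adjusted p = 0.754 and 0.415). The nucleolar paralogue Rpl7l1 differed by -0.16 ± 0.17 and 0.15 ± 0.15, and Rpl22l1, the paralogue of Rpl22, by -0.084 ± 0.157 and 0.11 ± 0.14.

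Between transgenic mice on the high-fat diet and wild-type mice on the normal diet the ribosomal protein genes had no common direction. For DH minus CN, 25 genes lay above and 20 below 0, with a median of 0.025, 0.073 for the large and -0.009 for the small subunit. The overall median was -0.026 after quantile normalization and -0.029 without DH arrays 3 and 4. None of these genes was among the 165 genes that passed the test (2.08% of those tested), and their smallest adjusted p was 0.136. At an unadjusted limma p under 0.05 there were 4 (8.89%), 2 in each direction, against 18.3% of all genes. The groups did not overlap for Rpl14 on the higher side (2.22%, against 8.46% of all genes) and for Rpl22 and Rpl27a on the lower side (4.44%, against 7.1%). These shares were below the background.

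Rpl4, a large subunit protein with a loop reaching into the peptide tunnel, had signals of 9982, 9807 and 10549 in CN, 10628, 10834, 10060 and 9869 in CH, and 11334, 10511, 14278 and 13981 in DH. DH arrays 3 and 4 lay far above the rest and DH array 2 lay inside the CN range. The difference for DH minus CN was 0.30 ± 0.11 (SE, limma adjusted p = 0.189), and it was 0.11 without DH arrays 3 and 4. For Rpl14 it was 0.76 ± 0.29 (SE, limma adjusted p = 0.186), and for Rps9, Rpl7a, Rpl37a and Rps2, the other genes with the smallest p on the higher side, 0.16 ± 0.09, 0.15 ± 0.10, 0.15 ± 0.10 and 0.14 ± 0.09. After quantile normalization Rpl7a, Rpl37a and Rps2 were at 0.039, 0.033 and 0.024, and without DH arrays 3 and 4 the 4 genes were at 0.101, 0.075, 0.025 and 0.031. On the lower side Rpl27a was at -0.35 ± 0.11 (SE, limma adjusted p = 0.136), Rpl37 at -0.35 ± 0.17, Rps27 at -0.84 ± 0.42, Rpl39 at -0.27 ± 0.19 and Rps27l at -0.13 ± 0.09.

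Several genes were covered by more than 1 probe set, which gave a second reading of the same mice. For 19 genes, 37 further probe sets passed the limit on dim signals. Their sign matched that of the brightest probe set in 33 of 37 cases for CH minus CN, 32 for DH minus CH and 25 for DH minus CN. Probe sets of a gene can share bases with pseudogenes and with each other, so they are not independent readings. Identifiers ending in _x_at mark probes that can bind other transcripts, and 37 of the 82 measured probe sets were of that kind. Their median for CH minus CN was -0.17, against -0.14 over 27 sets ending in _a_at and -0.050 over 16 ending in _at alone. For DH minus CH the medians were 0.19, 0.17 and 0.083. The 91 measured probe sets with several symbols, 1 of them a ribosomal protein gene, had a median of -0.18 for CH minus CN with 84 below 0, and 0.14 for DH minus CH with 81 above 0.

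Where the probe sets of a gene parted, single genes could not be given 1 value, and the genes in this paragraph were chosen after their values were seen. For Rpl7 a probe set ending in _x_at had signals of 4617, 3613 and 3690 in CN, 3280, 4056, 3468 and 3404 in CH, and 2669, 2647, 1652 and 2132 in DH. All 4 DH arrays lay below every other array. When every probe set with 1 symbol was tested by itself, this set was the only ribosomal protein set to pass, at -0.82 ± 0.16 for DH minus CN (SE, limma adjusted p = 0.0285), in a fit that called 240 of 12527 probe sets (1.92%). The 2 brighter Rpl7 probe sets were at -0.018 ± 0.083 and 0.14 ± 0.10 for the same comparison, so the fall in this set was not shared by the others. For Rpl27 a set ending in _x_at gave -0.37 ± 0.10 for CH minus CN where the brightest gave -0.038 ± 0.095. For Rps15 a set ending in _a_at gave -0.31 ± 0.08 where the brightest gave -0.030 ± 0.121. The 3 further bright Rps24 sets gave -0.37 ± 0.12, -0.44 ± 0.13 and -0.70 ± 0.21 for CH minus CN, and a Rps24 set with low signals gave 0.096 ± 0.399. One Rps9 set swung between 54 and 3164 across arrays while the brightest Rps9 set did not. Its high signals were on CN arrays 1 and 2 and DH array 2, at 1886, 2329 and 3164, and its CH signals were 53.6 to 122.1. It was among the probe sets counted above as lower in CH at an unadjusted limma p under 0.05.

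**Figure D4:**
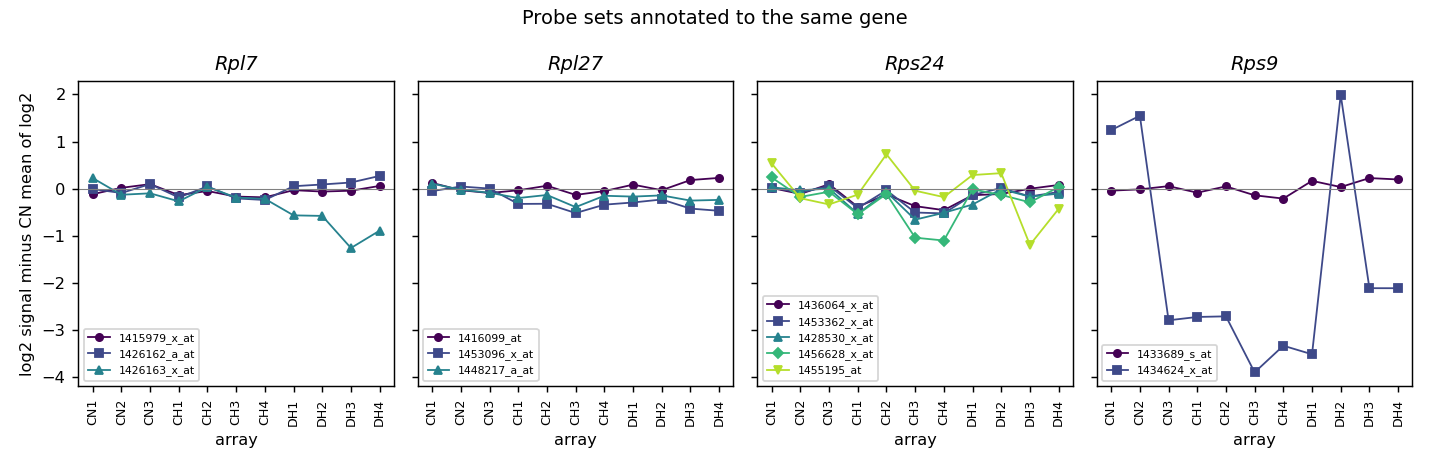
Log2 signal minus the CN mean of the log2 signals (vertical axis) on the 11 arrays (horizontal axis) for each measured probe set of Rpl7, Rpl27, Rps24 and Rps9, 1 line per probe set. One Rpl7 set falls on all 4 DH arrays while the others stay near 0, and 1 Rps9 set moves by several log2 units between arrays of the same group.

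Other genes of the translation machinery were set beside the ribosomal proteins. These lists were drawn up with earlier results of these data known and are described by counts and medians only. Over 20 further TOP-class genes, which include elongation factors, the median was -0.066 for CH minus CN with 16 below 0, and 0.067 for DH minus CH with 14 above 0, and the latter was -0.021 without DH arrays 3 and 4. Eif3f and Eif4b, both initiation factors, were at -0.23 ± 0.10 and -0.21 ± 0.10 for CH minus CN, and the abundant Tpt1 was at 0.19 ± 0.08 for DH minus CH. Nap1l1, a histone chaperone, was at -0.39 ± 0.14 for DH minus CH. Over 24 other initiation and termination factors the medians were -0.101 and 0.025, with Eif3a at -0.30 ± 0.12 for CH minus CN and the cap-binding Eif4e at 0.31 ± 0.11 for DH minus CH.

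Over 62 ribosome biogenesis genes the median was -0.062 for CH minus CN, with 41 below 0, and -0.008 for DH minus CH, with 30 above 0, and the latter was 0.065 without DH arrays 3 and 4 and 0.021 without CH array 2. The RNA helicase Ddx21, which acts in ribosomal RNA synthesis and processing, had a mean signal of 214 ± 17.6 (SD, n = 3) in CN, 125 ± 15.2 (SD, n = 4) in CH and 219 ± 31.4 (SD, n = 4) in DH. Its differences were -0.78 ± 0.17 (SE, limma adjusted p = 0.361) and 0.80 ± 0.15 (SE, limma adjusted p = 0.0504). Nucleophosmin, Npm1, was at -0.28 ± 0.11 for CH minus CN and -0.038 ± 0.097 for DH minus CH. Over 23 regulators of the mTORC1, S6 kinase and MYC pathways the medians were 0.001 and 0.080, with Mycn at 1.34 ± 0.35 for DH minus CH (SE, limma adjusted p = 0.119). The Mycn signals were low, with means of 58.4 ± 27.0 (SD, n = 3) in CN, 35.3 ± 13.0 (SD, n = 4) in CH and 87.0 ± 18.4 (SD, n = 4) in DH. Its CH mean lay under the limit on dim signals of about 53. Akt1 itself, the gene named in the transgene, was at 0.080 ± 0.132 for DH minus CH, with mean signals of 467 ± 41.3 (SD, n = 4) in CH and 496 ± 70.5 (SD, n = 4) in DH liver. The labels do not say whether its probe set lies within the transgene.

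The mitochondrial ribosomal proteins, which build a separate ribosome inside mitochondria, had medians of the opposite sign. Over 74 genes the median was 0.035 for CH minus CN, with 44 above 0, and -0.093 for DH minus CH, with 50 below 0. Quantile normalization gave 0.048 and -0.073, and leaving out CH array 2 gave 0.004 and -0.074. Mrpl45 was at 0.49 ± 0.13 for CH minus CN (SE, limma adjusted p = 0.497) and Mrps36 at -0.42 ± 0.10 for DH minus CH (SE, limma adjusted p = 0.111). No gene of any of these 5 lists passed the test in any comparison.

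**Figure D5:**
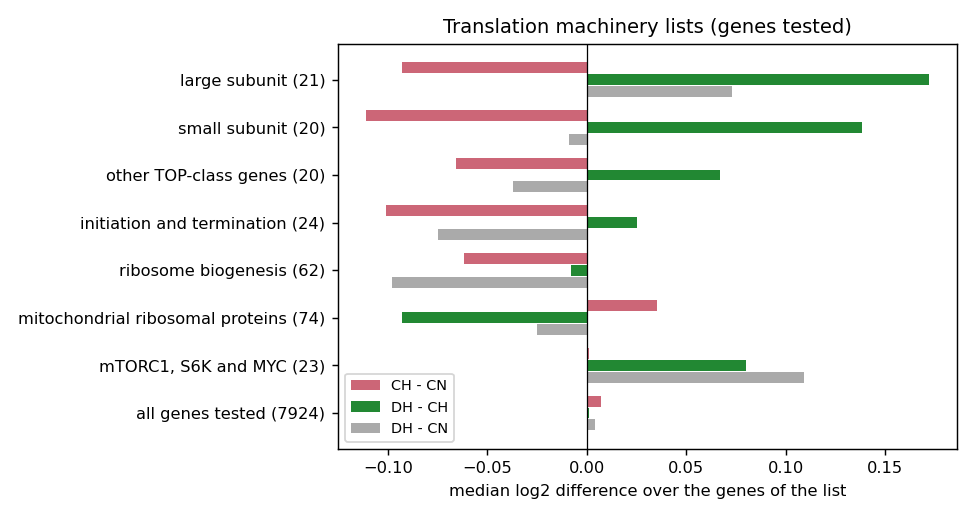
Median log2 difference over the measured genes (horizontal axis) for each list (vertical axis, number of genes in brackets) and for all genes tested, with 1 bar each for CH minus CN, DH minus CH and DH minus CN. The 2 subunits have the longest bars for DH minus CH, the mitochondrial ribosomal proteins point the other way, and the bars for all genes lie near 0.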

How the data were processed

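Liver total RNA of 11 mice was labelled from a poly-dT primer, per the labels' protocols. The deposited intensity values are linear signals that the authors computed with MAS5 (version not given), per the submitters' processing notes. They came without detection calls, and each array had a trimmed mean of 500.251 to 500.285. Signals under 1 were set to 1, and log2 values were fitted with limma 3.58.1 in R 4.3.3 (lmFit, eBayes with trend, all 11 arrays in one fit, Benjamini-Hochberg adjustment over all genes). Control probe sets, those without exactly 1 symbol and the dimmest 40% (signal under about 53) were left out, and the brightest probe set stood for each gene, leaving 7924 genes. The adjusted p threshold was 0.05. The number of arrays limits the precision.

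Named genes were, per comparison and direction, the members of smallest p up to 6, besides the stalk, S6 kinase, MDM2 and paralogue genes, and the 2 of smallest p of other lists (Akt1 and Npm1 were added). The members and lists were chosen with earlier results of these data known. Alternatives covered normalization, filters, probe set choice, variance model, array weights, replicate block and left-out arrays. Those with several symbols included, with every probe set unfiltered, or with the dimmest 90% left out were chosen after seeing the data.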

Additional observations from a re-analysis of the deposited data

How the results depend on the processing

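In 27 alternative settings each, no ribosomal protein gene was called for CH minus CN or DH minus CH. For DH minus CN 1 probe set (Rpl7) was called lower with all probe sets, with every probe set including several symbols, and with every probe set unfiltered. The median over the ribosomal proteins ranged from -0.156 to -0.070 for CH minus CN, from 0.118 to 0.189 for DH minus CH and from -0.006 to 0.072 for DH minus CN as single arrays were left out, and it was -0.119, 0.087 and -0.026 after quantile normalization. The large minus small subunit median for CH minus CN (0.018) was -0.027 with all probe sets and with several symbols included, -0.033 unfiltered and -0.025 with the replicate block, and -0.030 to 0.044 with single arrays left out. For DH minus CH (0.034) it was -0.002 with all probe sets and with several symbols included, and for DH minus CN (0.082) it was 0.028 without DH replicates 3 and 4. The causes were not tested.

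Replicate numbers were not taken to pair the mice, since same-numbered arrays correlated from -0.0721 to 0.292 in their deviations from the group means. Between CH and DH the 4 same-numbered pairs correlated at 0.0842 to 0.292, and each of these arrays correlated best with its own number in the other group, a hint from the data and not from the design. With the replicate block, 2 genes were called for CH minus CN in place of 0, 31 for DH minus CH and 139 for DH minus CN, and no ribosomal protein gene was among them. For DH minus CH the number called on the whole array was 0 without an intensity trend, 8 with only the groups compared, 12 without the filter on dim probe sets, 48 with all probe sets, 57 with several symbols included, 58 with array weights and 4 without DH replicates 3 and 4. For DH minus CN it was 81 without an intensity trend, 104 with only the groups compared, 253 with several symbols included and 23 without DH replicates 3 and 4.

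Some genes near 0 turned sign, none of them called. Rps27l for CH minus CN (0.002) was -0.003 after quantile normalization, with or without the 90% filter, -0.011 with array weights, -0.007 with the replicate block, and -0.078 to 0.045 with single arrays left out. Rpl14 for CH minus CN was -0.078 and Rps27 -0.115 with the replicate block, with ranges of -0.162 to 0.247 and -0.295 to 0.214 over left-out arrays, and Rps4l ranged from -0.516 to 1.061. Rpl37 for DH minus CH was 0.024 with array weights, 0.141 without DH replicates 3 and 4, and -0.131 to 0.059 over left-out arrays. Without sets ending in _x_at and _s_at, Rps24 was read from a set with low signals, at 0.096 for CH minus CN and -0.346 for DH minus CH. No detection calls were used here, so how far a probe set lay above background is unknown. Differences near 0.1 are about the size of 1 standard error for most of the ribosomal protein genes measured.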
